A study of Mus musculus with 43 samples.

Results

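The genes described here are 10 parts and close targets of the circadian clock, taken by symbol from a table of 21938 genes measured in mouse lung. They are Arntl (also written Bmal1), Npas2, Clock, Per1, Per2, Per3, Nr1d1, Nr1d2, Dbp and Ciart, and all 10 were found and passed the filter on low counts. RNA sequencing counts came from the inferior lung lobe of 43 mice in 3 groups. Mice given bleomycin, a DNA-breaking antibiotic that brings about lung fibrosis in rodents, received nintedanib (n = 17) or the vehicle of nintedanib (n = 16). Nintedanib blocks receptor tyrosine kinases of the PDGF, FGF and VEGF families. Control mice received a vehicle that the labels do not name (n = 10), so bleomycin and any difference between the vehicles cannot be told apart in comparisons with control. The labels give no dose, route, day, strain, sex, age, cage or hour of collection. Each library was taken as 1 mouse, and p-values measure the spread between these libraries. The 3 groups are called nintedanib, vehicle and control lungs below.

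In mammalian cells the proteins of Arntl and Clock, or of Arntl and the Clock relative Npas2, pair up and switch on genes that carry an E-box in their DNA. Among these are the Per genes, whose proteins return with cryptochromes to block the pair, and Nr1d1 and Nr1d2, which encode the nuclear receptors REV-ERB alpha and beta that repress Arntl through ROR elements. Dbp, a transcription factor that acts on D-boxes, and Ciart, a repressor also known as CHRONO, are further E-box targets. In mouse lung, as in other organs, Arntl and Npas2 are known to peak when Dbp, Nr1d1 and the Per genes are low. Clock is known to vary little over the day. A difference between groups in the hour of collection cannot be told apart from one of treatment here, since no hours are given.

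The promoters show which of these elements lie next to the gene starts. The RefSeq table of GRCm38.p6 gave windows from 250 bases before to 50 after the start for 9 of the 10 genes, and Per2 is named only. Letters searched on both strands were the E-box CACGTG, its variant CACGTT, the D-boxes TTATGTAA and TTATGCAA, and the ROR element, an A and any pair of bases before TAGGTCA. None of these motifs overlaps another in the sequences shown. The E-box was found in 7.15% of 32851 windows, CACGTT in 4.68%, TTATGTAA in 0.938%, TTATGCAA in 0.743% and the ROR element in 0.70%. The windows below are those of members in which letters matched, with the matches in capitals, 5′ to 3′ on the strand of the gene. They show the 250 bases before the start for Ciart (chr3:95882229-95882478, minus strand), Per3 (chr4:151044666-151044915, minus strand), Per1 (chr11:69098699-69098948, plus strand) and Nr1d1 (chr11:98775378-98775627, minus strand), and a 30-base site of Arntl (chr7:113207528-113207557, plus strand).
Ciart: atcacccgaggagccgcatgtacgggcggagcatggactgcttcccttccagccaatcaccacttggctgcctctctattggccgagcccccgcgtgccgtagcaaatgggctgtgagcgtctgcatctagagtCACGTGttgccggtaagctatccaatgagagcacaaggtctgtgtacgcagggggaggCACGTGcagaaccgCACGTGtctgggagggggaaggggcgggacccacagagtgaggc
Per3: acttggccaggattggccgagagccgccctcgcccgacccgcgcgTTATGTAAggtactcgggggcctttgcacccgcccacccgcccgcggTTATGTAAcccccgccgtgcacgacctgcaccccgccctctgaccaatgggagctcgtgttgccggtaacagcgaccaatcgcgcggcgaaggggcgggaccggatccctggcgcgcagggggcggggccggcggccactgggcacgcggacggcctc
Per1: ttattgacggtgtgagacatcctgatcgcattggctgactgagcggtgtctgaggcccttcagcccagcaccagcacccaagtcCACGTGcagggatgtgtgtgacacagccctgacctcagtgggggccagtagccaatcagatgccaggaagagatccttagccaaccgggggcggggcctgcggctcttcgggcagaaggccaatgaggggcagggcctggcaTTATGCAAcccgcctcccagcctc
Nr1d1: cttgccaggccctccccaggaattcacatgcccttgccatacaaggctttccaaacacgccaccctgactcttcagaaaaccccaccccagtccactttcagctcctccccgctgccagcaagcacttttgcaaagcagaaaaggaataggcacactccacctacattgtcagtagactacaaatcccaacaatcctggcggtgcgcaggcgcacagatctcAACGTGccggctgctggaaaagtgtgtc
Arntl site: ggaaggcagaAAGTAGGTCAgggacggagg

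Ciart held the E-box 3 times, at 116, 58 and 44 bases before its start. Per3 held TTATGTAA at 205 and 158 bases before its start, and Per1 held 1 E-box at 166 and TTATGCAA at 24 bases before it. In Nr1d1 the match to CACGTT is on the other strand and reads AACGTG here, 28 bases before the start. The ROR element of Arntl begins at base 28 of the transcript from the second of its 2 listed starts, and the window of the first start, which lies upstream, held none of these letters. A second listed start of Per1 and the windows of Dbp, Nr1d2, Npas2 and Clock held none of these letters, which says nothing of sites elsewhere in those genes.

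Levels per length, in CPM (counts scaled to the library total) per kilobase of annotated exon, put Nr1d1 first and Npas2 last in every group. In nintedanib lungs Nr1d1 averaged 57.0 ± 14.1 CPM per kb (n = 17), followed by Per1 at 23.7 ± 6.8, Nr1d2 at 19.7 ± 2.63 and Dbp at 16.9 ± 2.81. In vehicle lungs Nr1d1 averaged 50.2 ± 16.3 CPM per kb (n = 16), followed by Per1 at 27.2 ± 8.45, Dbp at 24.6 ± 7.79 and Nr1d2 at 21.6 ± 3.89. In control lungs Nr1d1 averaged 106 ± 13.8 CPM per kb (SD, n = 10). Dbp at 43.6 ± 14.3, Per1 at 33.2 ± 12.7 and Nr1d2 at 30.5 ± 6.13 CPM per kb came next and did not differ beyond their spread. Per2 at 15.7 ± 5.38, Per3 at 14.6 ± 4.34 and Ciart at 12.6 ± 3.21 CPM per kb formed a lower set whose spreads also overlapped. Clock stood at 4.86 ± 0.799 CPM per kb, Arntl at 0.991 ± 0.684 and Npas2 at 0.493 ± 0.242. Dbp thus stood below Nr1d2 in nintedanib lungs and above it in vehicle and control lungs, with spreads that overlapped in all 3 groups.

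**Figure D1:**
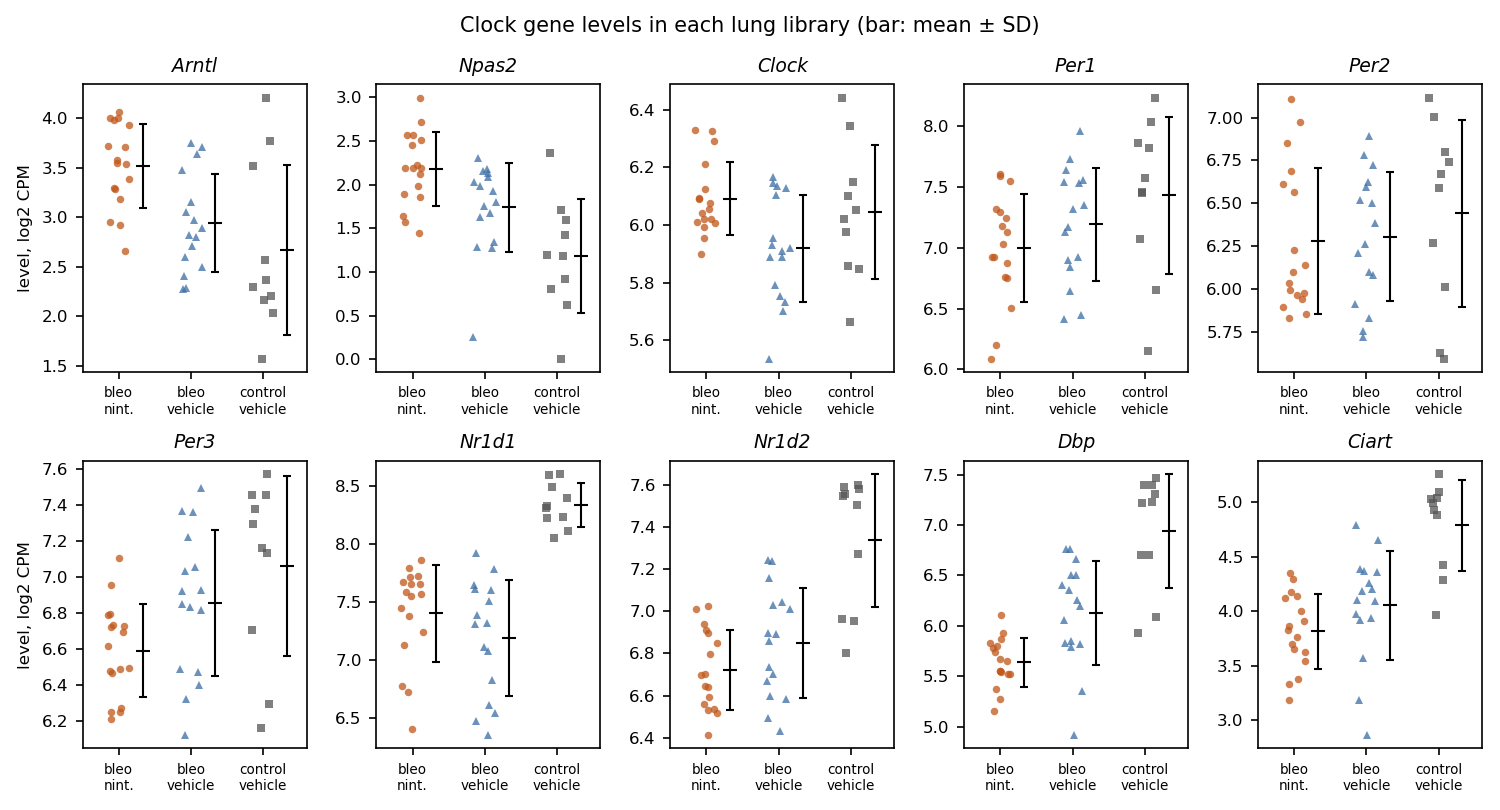
Level in log2 CPM of each of the 10 clock genes (one panel each) in every library of nintedanib, vehicle and control lungs, with the mean and SD beside the points. All control points of Nr1d1 (265 to 389 CPM) lie above all bleomycin points, while those of Arntl, Per1, Per2 and Per3 span most of the range of their panels.

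Library totals were 13138281 to 19111457 counts, and the lowest count of any of these genes in a library was 15. Across all 14836 genes tested, 7.31% were called between nintedanib and vehicle lungs by edgeR's quasi-likelihood test with Benjamini-Hochberg adjustment. Against control lungs the share was 53.2% for nintedanib and 57.9% for vehicle lungs, so a call there is common. Cell type markers differed as well. Between vehicle and control lungs 8 of 8 macrophage markers were higher, and 9 of 10 endothelial, 6 of 6 B cell and 9 of 9 adipocyte markers were lower. The summed endothelial level ran from 2715 to 4204 CPM in nintedanib, from 1934 to 5041 CPM in vehicle and from 4991 to 6431 CPM in control lungs. The summed macrophage level ran from 1099 to 5969 CPM in nintedanib, from 1136 to 5164 CPM in vehicle and from 349.5 to 565 CPM in control lungs. All 8 markers of each alveolar epithelial cell type passed the filter on low counts. Adipoq, the defining fat gene, reached 1 CPM in 5 of 17 nintedanib, 0 of 16 vehicle and 8 of 10 control libraries. The part of cell makeup in the clock gene results was not tested beyond the fits with fat and airway covariates and without the Adipoq libraries. As a description, the mean log2 CPM of neutrophil markers had r = 0.86 with Nr1d1 in vehicle, 0.44 in nintedanib and 0.48 in control lungs. Erythrocyte markers had 0.79, -0.09 and -0.49 and endothelial markers 0.69, 0.12 and 0.22 in the same order. These lists were picked as the highest in vehicle lungs. Fibroblast markers had r = 0.64 with Arntl in vehicle and 0.11 in nintedanib lungs. In whole lung, fewer cells of a type and less RNA per cell cannot be told apart.

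Vehicle against control lungs asked how the clock genes stood in bleomycin-injured lung. Among the targets of the Arntl and Clock pair Nr1d1, Nr1d2, Dbp and Ciart fell, while Per1, Per2 and Per3 did not pass the test. Npas2 rose. In edgeR's test 1 of the 10 was higher (29.5% of all genes tested) and 4 were lower (28.3%), counts that do not set the 10 apart from all genes. The median log2 fold change of the 10 was -0.26, against -0.0061 for all genes tested. TMM scaling keeps the median of all genes near 0, so this contrast does not show an unusual shift. The median absolute log2 fold change of all genes was 0.23. Arntl and Clock were not called either.

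Nr1d1 (chromosome 11, 98767932 to 98775333), the REV-ERB alpha gene, had its lowest value at 81.6, its median at 159 and its highest at 243 CPM in vehicle lungs. Control lungs had 265, 320 and 389 CPM. Every vehicle lung lay below every control lung, so that Nr1d1 was the 1 member of 10 without overlap. Genes lower in all vehicle lungs than in any control lung made up 1.84% of all genes tested, and genes higher in all made up 3.7%, with 0 of 10 members. The log2 fold change of Nr1d1 was -1.08 ± 0.15 (SE, adjusted p = 1.2e-07), a 2.11-fold lower level.

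Nr1d2 (chromosome 14, 18204054 to 18239127), which encodes REV-ERB beta, had 86.2, 117 and 151 CPM as lowest, median and highest in vehicle lungs, against 111, 184 and 194 CPM in control lungs. All 16 vehicle lungs lay below the control median, and 7 lay below every control lung. The log2 fold change was -0.50 ± 0.10 (adjusted p = 2.5e-05).

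Dbp (chromosome 7, 45705088 to 45710203), the D-box factor, had 30.1, 74.8 and 108 CPM in vehicle lungs, against 60.8, 149 and 176 CPM in control lungs. The groups overlapped between 60.8 and 108 CPM, and all 16 vehicle lungs lay below the control median. Its log2 fold change was -0.83 ± 0.16 (adjusted p = 2.7e-05).

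Ciart (chromosome 3, 95878503 to 95882251), the repressor with 3 E-boxes in its window, had 7.14, 17.6 and 27.5 CPM in vehicle lungs, against 15.4, 31 and 38.1 CPM in control lungs. It too was below the control median in 16 of 16 vehicle lungs, with a log2 fold change of -0.72 ± 0.16 (adjusted p = 0.00013).

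Npas2 (chromosome 1, 39193731 to 39363236), the Clock relative, had 1.07, 3.52 and 4.82 CPM in vehicle lungs, against 0.882, 2.15 and 5.03 CPM in control lungs. The vehicle range lay inside the control range, and 15 of 16 vehicle lungs lay above the control median. Its log2 fold change of 0.53 ± 0.21 was called (adjusted p = 0.029), but it was not called within the largest library number series (0.45, adjusted p = 0.13), with that series as a covariate (0.48, adjusted p = 0.052), with library totals (0.48, adjusted p = 0.052) or with only these groups in the fit (0.51, adjusted p = 0.051). Leaving out any 1 of 8 single libraries also ended the call, with control replicate 5 giving the lowest value (0.40, adjusted p = 0.094). The other 7 were control replicates 2, 6, 7, 9 and 10 and vehicle replicates 3 and 8.

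Arntl, Clock and the period genes did not pass the test. Arntl (chromosome 7, 113207465 to 113314126), the partner needed by both Clock and Npas2, had 4.74, 7.12 and 13.3 CPM in vehicle lungs, against 2.85, 4.92 and 18.4 CPM in control lungs. It was above the control median in 14 of 16 vehicle lungs, yet 2 control lungs stood above every vehicle lung, and the log2 fold change was 0.11 ± 0.23 (adjusted p = 0.70). Clock (chromosome 5, 76209868 to 76304792), the partner of Arntl, stood at -0.13 ± 0.07 (adjusted p = 0.10). It was called lower with library totals (-0.18, adjusted p = 0.032) and without any 1 of 10 single libraries (control replicates 3, 6, 7, 9 and 10, vehicle replicates 6, 8 and 10, nintedanib replicates 12 and 14). The largest of these changes was -0.20 (adjusted p = 0.012), without control replicate 6. Per1 (chromosome 11, 69095217 to 69109960) stood at -0.29 ± 0.19 (adjusted p = 0.19), Per2 (chromosome 1, 91415982 to 91459324) at -0.18 ± 0.17 (adjusted p = 0.37) and Per3 (chromosome 4, 151003652 to 151044665) at -0.22 ± 0.14 (adjusted p = 0.18) as log2 fold changes. These 3 encode the proteins that close the feedback loop. Per3 was called lower with the fat and airway list means as covariates (-0.48, adjusted p = 0.047) and without control replicate 8 (-0.33, adjusted p = 0.040).

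Within the largest library number series (11 vehicle and 9 control libraries) Nr1d1 stood at -1.14, Nr1d2 at -0.44, Dbp at -0.76 and Ciart at -0.77 as log2 fold changes, all called. Without the Adipoq libraries, those with 1 CPM or more of it, only 2 control lungs were left. In that fit, picked with the data already seen, 1 gene was higher and 4 were lower, and the value of Npas2 was larger (1.56, adjusted p = 0.0054).

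**Figure D2:**
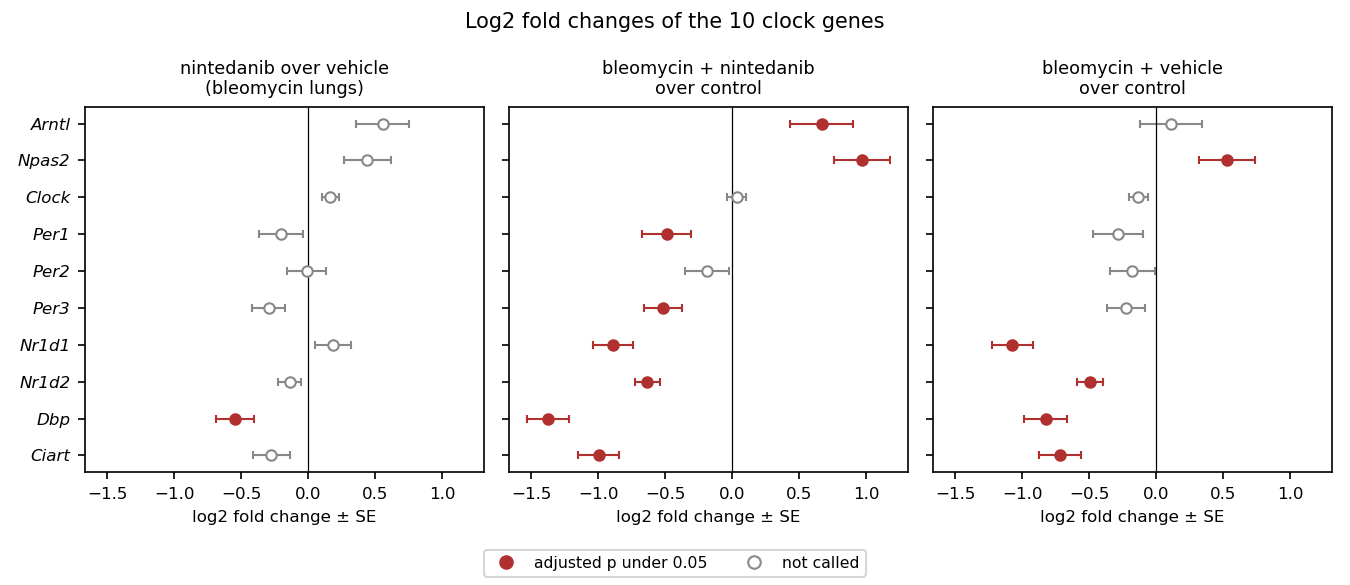
Log2 fold change ± SE of the 10 clock genes in 3 comparisons (panels), from a fit over all 43 libraries. Filled points have an adjusted p under 0.05: 1 gene between nintedanib and vehicle lungs, 8 between nintedanib and control lungs and 5 between vehicle and control lungs.

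Nintedanib against vehicle lungs asked what the drug changed in injured lung. Dbp was the one clock gene called, and it fell under nintedanib. By edgeR's test 0 of 10 genes were higher (3.21% of all genes tested) and 1 was lower (4.1%). Without an adjustment, Dbp, Arntl, Clock, Npas2 and Per3 had p under 0.05 in edgeR's test, as did many other genes. Ciart, next of the 10 at p = 0.052, stood at rank 3691 of the 14836 genes tested. limma-voom called 2 genes and DESeq2 1.

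Dbp had 35.7, 50.1 and 69.0 CPM as lowest, median and highest in nintedanib lungs, against 30.1, 74.8 and 108 CPM in vehicle lungs. All 17 nintedanib lungs lay below the vehicle median, and 9 of 16 vehicle lungs stood above every nintedanib lung. The lowest single value was nonetheless that of a vehicle lung. The log2 fold change was -0.55 ± 0.14 (adjusted p = 0.015), a 1.46-fold lower level, and -0.61 (adjusted p = 0.021) within the largest library number series. It kept its direction but lost its call without the Adipoq libraries (-0.50, adjusted p = 0.0501) and with the Arntl level of each library as a covariate (-0.19, adjusted p = 0.31), both chosen after seeing the data. Between these groups 7 of 9 adipocyte, 5 of 9 airway mucosa, 4 of 6 neutrophil and 4 of 6 erythrocyte markers were higher in nintedanib lungs, and 0 of 8 macrophage markers were called. The summed neutrophil level was 59.5 to 708 CPM in nintedanib and 25.9 to 124 CPM in vehicle lungs. The part of neutrophils and blood in the Dbp result was not tested.

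Arntl had 6.21, 11.6 and 16.6 CPM in nintedanib lungs, against 4.74, 7.12 and 13.3 CPM in vehicle lungs. It was above the vehicle median in 16 of 17 nintedanib lungs, and 5 of these lay above every vehicle lung. Its log2 fold change of 0.56 ± 0.20 was not called (adjusted p = 0.075), was called by limma-voom (0.59, adjusted p = 0.040) and with only these 2 groups in the fit (0.56, adjusted p = 0.035), and stood at 0.49 (adjusted p = 0.20) within the largest library number series.

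Clock had 59.6, 66.3 and 80.4 CPM in nintedanib lungs, against 46.2, 60.2 and 71.7 CPM in vehicle lungs. It was above the vehicle median in 16 of 17 nintedanib lungs, and 7 of 16 vehicle lungs lay below every nintedanib lung. The log2 fold change was 0.17 ± 0.06 (adjusted p = 0.081). Npas2 had 2.61, 4.43 and 7.85 CPM in nintedanib lungs, against 1.07, 3.52 and 4.82 CPM in vehicle lungs, with a log2 fold change of 0.44 ± 0.17 (adjusted p = 0.11). All 3 activator values were thus positive, and none passed the test.

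Among the period genes, Per3 had 74.1, 98.2 and 137 CPM in nintedanib lungs, against 69.6, 118 and 180 CPM in vehicle lungs. It lay below the vehicle median in 15 of 17 nintedanib lungs, at a log2 fold change of -0.29 ± 0.12 (adjusted p = 0.14). Per1 stood at -0.20 ± 0.16 (adjusted p = 0.46) and Per2 at -0.01 ± 0.15 (adjusted p = 0.98) as log2 fold changes, and for both genes the ranges of the groups overlapped. Per2 had 56.9, 68.4 and 138 CPM in nintedanib lungs, against 52.8, 80.0 and 119 CPM in vehicle lungs. Of the repressors, Ciart stood at -0.28 ± 0.14 (adjusted p = 0.21), Nr1d2 at -0.14 ± 0.08 (adjusted p = 0.31) and Nr1d1 at 0.18 ± 0.13 (adjusted p = 0.40). Nr1d1 had 84.6, 189 and 233 CPM in nintedanib lungs, against 81.6, 159 and 243 CPM in vehicle lungs. Nr1d1 and Dbp thus had values of opposite sign, though the difference between them was not tested.

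Nintedanib against control lungs placed 2 activators higher and 6 of the other genes lower. By edgeR's test 2 of 10 genes were higher (28.1% of all genes tested) and 6 were lower (25.1%). The median log2 fold change of the 10 was -0.50, against -0.0052 for all genes tested, a median that the scaling keeps near 0. The median absolute log2 fold change of all genes was 0.21. This comparison shares its control lungs with that of vehicle lungs and its nintedanib lungs with that of nintedanib against vehicle.

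Dbp had the lowest value of the 10, at -1.37 ± 0.16 on the log2 scale (adjusted p = 1.5e-09), a 2.59-fold lower level. Its 35.7 to 69.0 CPM in nintedanib lungs met the 60.8 to 176 CPM of control lungs only at the upper end, and 15 of 17 nintedanib lungs lay below every control lung. Ciart had 8.94, 14.1 and 20.2 CPM in nintedanib lungs, against 15.4, 31 and 38.1 CPM in control lungs, and stood at -0.995 ± 0.153 (adjusted p = 7.2e-07). Nr1d1 stood at -0.89 ± 0.15 (adjusted p = 3.7e-06), and its 17 nintedanib lungs were all below 265 CPM, the lowest control. Such a lack of overlap was seen for 3.07% of all genes tested, and in the higher direction for 4.31%, with 0 of 10 members. Nr1d2 had 85.0, 104 and 130 CPM in nintedanib lungs and stood at -0.63 ± 0.09 (adjusted p = 3.6e-07), with 11 of 17 nintedanib lungs below every control lung.

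Npas2 had the highest log2 fold change, 0.97 ± 0.21 (adjusted p = 0.00014), and all 17 nintedanib lungs lay above the control median of 2.15 CPM. Arntl stood at 0.67 ± 0.23 (adjusted p = 0.014), and again 17 of 17 nintedanib lungs lay above the control median of 4.92 CPM, with 1 control lung above them all. Within the largest library number series Arntl was not called (0.50, adjusted p = 0.11) while Npas2 was (0.87, adjusted p = 0.0033). Per3 stood at -0.52 ± 0.14 (adjusted p = 0.0019) and was below the control median of 149.6 CPM in 17 of 17 nintedanib lungs. Per1 had 67.9, 130.5 and 195 CPM in nintedanib lungs, against 71.0, 183 and 301 CPM in control lungs, at -0.49 ± 0.18 (adjusted p = 0.023). Per1 was not called in the largest library number series (-0.48, adjusted p = 0.054), by limma-voom (-0.43, adjusted p = 0.060) or without control replicate 6 (-0.42, adjusted p = 0.052). Without the Adipoq libraries neither Per1 (-0.52, adjusted p = 0.24) nor Per3 (-0.44, adjusted p = 0.19) was called, and Arntl (1.29) and Npas2 (1.88) had larger values there. Clock at 0.03 ± 0.07 (adjusted p = 0.70) and Per2 at -0.19 ± 0.17 (adjusted p = 0.35) were not called.

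Reads of overlapping genes bear on 2 of these results, since the counting strand is not given. Nr1d1 shares 263 exon bases (8.55% of its exon length) with Thra, a thyroid hormone receptor gene on the other strand. Thra stood at 0.08 (adjusted p = 0.44) between nintedanib and vehicle lungs. It stood at -0.46 (adjusted p = 1.5e-06) between nintedanib and control lungs and at -0.55 (adjusted p = 6.4e-08) between vehicle and control lungs. Both were calls in the direction of Nr1d1. Dbp shares 539 exon bases (18%) with Sphk2, a sphingosine kinase gene on the other strand. Sphk2 stood at 0.02 (adjusted p = 0.90), 0.22 (adjusted p = 0.0043) and 0.20 (adjusted p = 0.0075) in the same comparisons, against falls of Dbp in each. Both partner genes were picked for their overlap. Their reads cannot be told apart from those of the clock gene within the shared bases if strand was not used. Arntl shares 33 exon bases with an antisense gene model.

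Single libraries differed in the clock genes within every group. In control lungs Arntl separated into 7 lungs at 2.85 to 5.81 CPM and 3 lungs, replicates 4, 1 and 8, at 11.3, 13.5 and 18.4 CPM. Those 3 lungs had Per3 at 104, 78.4 and 71.6 CPM, the lowest values of the group, against 140.5 CPM or more in the other 7. Per1 (134, 71.0 and 101 CPM), Per2 (64.4, 48.2 and 49.3 CPM), Nr1d2 (125, 111 and 124 CPM) and Ciart (19.4, 21.3 and 15.4 CPM) were also at their lowest control values there, in the same order of lungs. Npas2, at 2.90, 3.14 and 5.03 CPM, was at its highest. Dbp and Clock followed in 2 of the 3 lungs. Dbp had 67.7 and 60.8 CPM in replicates 1 and 8, its lowest control values, while replicate 4 at 104.4 CPM lay just above replicate 2 at 104.0 CPM. Clock had 81.1 and 86.9 CPM in replicates 1 and 8, its highest control values, while replicate 4 at 66.3 CPM lay inside the range of the other 7. Nr1d1, at 389, 318 and 299 CPM in replicates 4, 1 and 8, was inside the range of the others or above it. These sets were seen in the values and are not groups of the study. All 3 of the lungs belong to the largest library number series, as do 6 of the other 7.

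**Figure D3:**
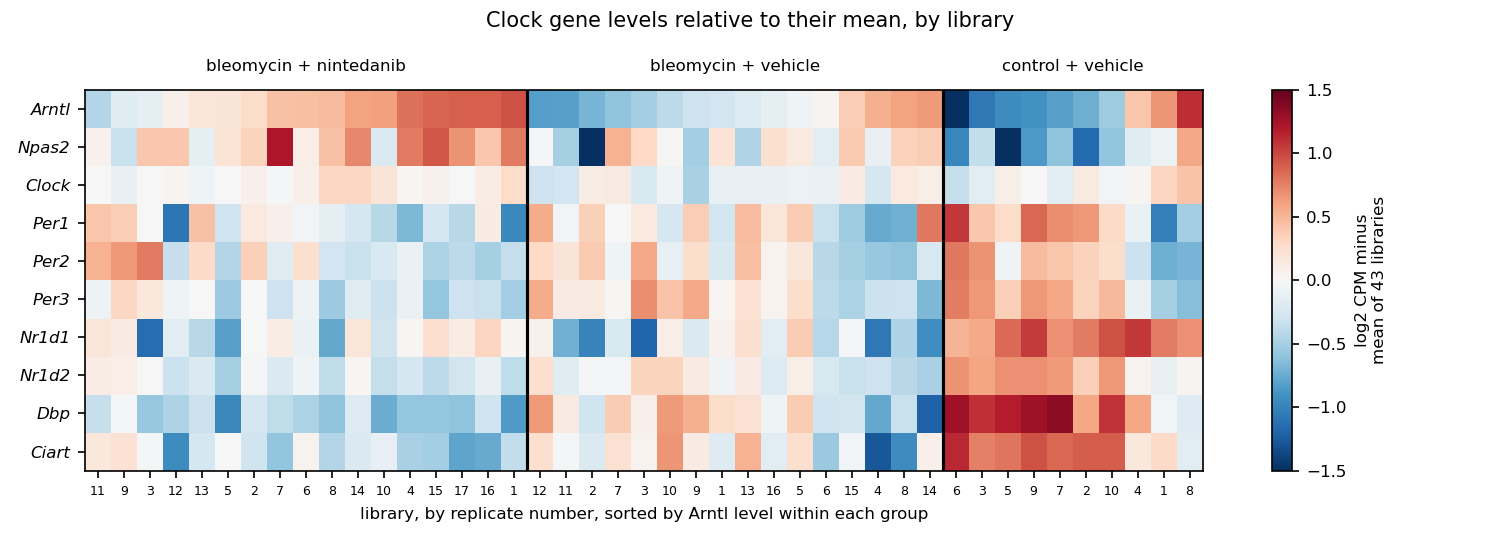
Log2 CPM of each clock gene minus its mean over 43 libraries (colour), with libraries as columns sorted by Arntl within nintedanib, vehicle and control lungs. From left to right within each block the Arntl row goes to red while the Per2, Per3 and Nr1d2 rows tend to blue, and the Nr1d1 row is red in all 10 control lungs.

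In vehicle lungs, Arntl ran without such a gap up to 13.3 CPM. The 4 vehicle lungs with 11 CPM or more, replicates 15, 4, 8 and 14, had Per3 at 79.9, 88.8, 89.7 and 69.6 CPM and Dbp at 57.5, 40.8, 55.4 and 30.1 CPM. Their Dbp values lay below the vehicle median of 74.8 CPM. Replicates 14 and 15 lie outside the largest library number series, and replicates 4 and 8 within it. Vehicle replicates 12, 13 and 16, also outside it, had Arntl at 4.74, 7.32 and 7.74 CPM. In nintedanib lungs 13 of 17 Arntl values were at 9.60 CPM or more, and the highest, replicate 1 at 16.6 CPM, went with Dbp at 38.6 CPM and Per3 at 77.2 CPM. The lowest, replicate 11 at 6.21 CPM, went with Dbp at 54.8 CPM and Per3 at 106 CPM. Dbp did not follow Arntl in every nintedanib lung. Replicate 16, at 15.9 CPM of Arntl, had Dbp at 56.8 CPM, and the lowest Dbp, 35.7 CPM in replicate 5, went with Arntl at 9.70 CPM.

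Correlations over libraries were computed for 45 pairs in each group, 135 in all, with two-sided permutation tests and Benjamini-Hochberg adjustment over the 135. Because the control values of Arntl fell apart, only the 7 control lungs at 2.85 to 5.81 CPM were used. Under nintedanib Arntl went down as Per2 went up, with r = -0.76 and rho = -0.71 (adjusted permutation p = 0.0066 and 0.024, n = 17). Arntl and Per3 had r = -0.64 and rho = -0.71 (adjusted permutation p = 0.037 and 0.024). In vehicle lungs Arntl and Per3 had r = -0.76 and rho = -0.68 (adjusted permutation p = 0.0099 and 0.037, n = 16). There, Arntl and Per2 had r = -0.75 and rho = -0.73 (adjusted permutation p = 0.013 and 0.024). With Nr1d2, Arntl had r = -0.73 and rho = -0.72 (adjusted permutation p = 0.016 and 0.024), and with Dbp r = -0.72 and rho = -0.66 (adjusted permutation p = 0.013 and 0.045). Of 27 pairs with Arntl these 6 were called, all negative.

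The 6 values kept their sign in each of the 2 smaller sets of libraries below, where the calls were lost. Fewer libraries entered each test there. Without the 2 libraries farthest from the median of Arntl, r under nintedanib was -0.65 with Per2 and -0.57 with Per3. In vehicle lungs r was then -0.71 with Per2, -0.66 with Per3, -0.57 with Nr1d2 and -0.60 with Dbp, and none of the 6 was called (adjusted permutation p = 0.058 to 0.14). In the largest library number series r with Per2 was -0.67 (n = 13) under nintedanib and -0.78 (n = 11) in vehicle lungs, with Per3 -0.59 and -0.60, and in vehicle lungs with Nr1d2 -0.58 and with Dbp -0.55. None passed there (adjusted permutation p = 0.055 to 0.21), and the other series held too few libraries. Without the 2 libraries of the largest series farthest from its Arntl median, not all signs were kept. In vehicle lungs r was then 0.05 with Dbp, a change of sign, -0.04 with Nr1d2, -0.25 with Per3 and -0.51 with Per2. Under nintedanib it was -0.57 with Per2 and -0.55 with Per3.

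Nr1d1 was not called with Arntl in any group. Arntl and Nr1d1 had r = 0.36 and rho = 0.32 (adjusted permutation p = 0.28 and 0.36) under nintedanib and r = -0.13 and rho = -0.05 (adjusted permutation p = 0.78 and 0.93) in vehicle lungs. Without the 2 farthest libraries r under nintedanib was 0.73 (adjusted permutation p = 0.035). That value did not hold within the largest library number series (n = 13). There r was 0.13 and rho -0.06 (adjusted permutation p = 0.83 and 0.89), and r was 0.29 without the 2 farthest libraries of that series. In the 7 control lungs r was 0.69 and rho 0.61 (adjusted exact permutation p = 0.19 and 0.31). Arntl and Dbp had r = -0.35 and rho = -0.40 (adjusted permutation p = 0.31 and 0.26) under nintedanib. The difference of that r from the one in vehicle lungs was not tested. Over the 7 control lungs, none of the 45 pairs was called. The 3 lungs left out held the highest Arntl and the lowest Per1, Per2, Per3, Nr1d2 and Ciart values of the control group, so the 7 do not show how these genes relate across all 10, and no r is given over the separated sets.

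**Figure D4:**
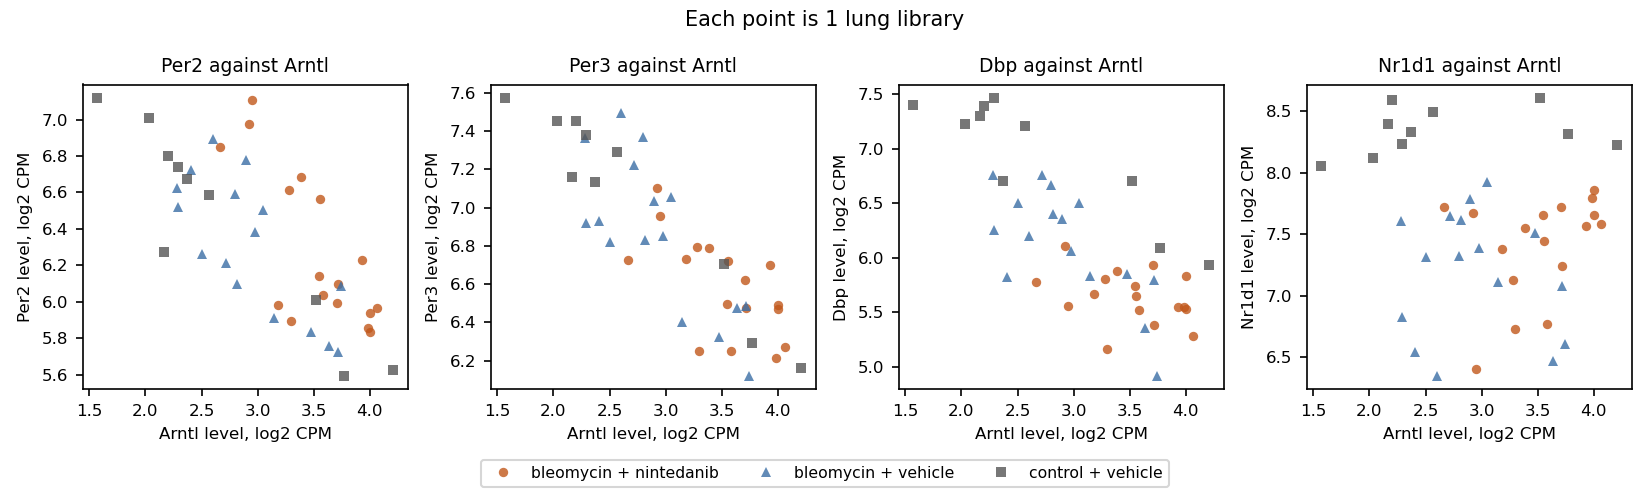
Level of Per2, Per3, Dbp and Nr1d1 (vertical, log2 CPM) against that of Arntl (horizontal, log2 CPM), 1 point per library, for nintedanib, vehicle and control lungs. Per2 and Per3 fall along Arntl, with r from -0.64 to -0.76 in the 2 bleomycin groups, while control lungs lie above both other groups in Nr1d1 at every Arntl level.

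Pairs among the 7 repressors and outputs were mostly positive. Under nintedanib 18 of their 21 pairs were positive and 7 were called, with a median r of 0.46. In vehicle lungs all 21 were positive and 10 were called, with a median r of 0.61 and a highest r of 0.93. Pairs of an activator with one of these 7 were negative in 19 of 21 cases under nintedanib and in 20 of 21 in vehicle lungs, with 2 and 4 of them called. The 7 control lungs leave out the highest Arntl values of their group and do not show the pattern across all 10. Over these 7 the pattern was weaker. There 15 of the 21 pairs among repressors and outputs were positive, with a median r of 0.18 and a lowest of -0.62. Activator pairs were negative in 14 of 21 cases, and 0 of either kind were called.

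Spread between mice was compared for each gene in 30 permutation tests of the absolute distance of each lung to its group median. None passed after Benjamini-Hochberg adjustment, and 2 had an unadjusted permutation p under 0.05. Dbp had an SD of 0.24 log2 CPM in nintedanib lungs and 0.51 in vehicle lungs (permutation p = 0.013, adjusted permutation p = 0.24). Nr1d1 had an SD of 0.50 log2 CPM in vehicle lungs and 0.19 in control lungs (permutation p = 0.016, adjusted permutation p = 0.24). Arntl had an SD of 0.42 in nintedanib, 0.49 in vehicle and 0.86 log2 CPM in control lungs. The median SD of all genes tested was 0.20 in nintedanib, 0.23 in vehicle and 0.16 log2 CPM in control lungs. As a description, the SD of Arntl in control lungs was at the 98.5th percentile of all genes tested, that of Npas2 at 95.9, of Per1 at 95.7 and of Nr1d1 at 59.6.

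The Arntl level of each library was also entered as a covariate for the 9 other genes, in a fit chosen after seeing the data. This fit gives each gene a common slope on Arntl across the groups, and the values below depend on that slope. The control lungs with high Arntl take part in it. Arntl and Dbp had r = -0.35 under nintedanib and -0.72 in vehicle lungs, and whether slopes differed between groups was not tested. The fit takes up any group difference that goes with Arntl along the common slope, whatever its source. Between vehicle and control lungs Nr1d1 (-1.09), Nr1d2 (-0.39), Dbp (-0.64) and Ciart (-0.56) were still called lower and Npas2 (0.45) higher, and Clock (-0.17, adjusted p = 0.011) was called lower. Between nintedanib and vehicle lungs Dbp was no longer called, and Per2 was called higher (0.34, adjusted p = 0.025). Between nintedanib and control lungs Per1 stood at 0.01 and Per3 at 0.0031, neither called, and Per2 was called higher (0.39, adjusted p = 0.0049). Nr1d1 (-0.94), Dbp (-0.84), Ciart (-0.56) and Nr1d2 (-0.34) were still lower there, and Npas2 (0.59) was higher. Over all genes, the calls between nintedanib and vehicle lungs numbered 797 with this covariate and 1084 without it, with 682 shared.

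Other parts of the clock were read from lists of related genes, whose counts stand beside the shares of all genes tested: 29.5% higher and 28.3% lower between vehicle and control lungs, 3.21% and 4.1% between nintedanib and vehicle lungs, and 28.1% and 25.1% between nintedanib and control lungs. No count was tested against these shares. Of 4 tested among Arntl2, Cry1, Cry2, Rora and Rorb, 1 was higher and 2 were lower in vehicle than in control lungs, with a median log2 fold change of -0.23. Rora, an activator that acts on ROR elements, fell (-0.55 ± 0.09, adjusted p = 2.8e-06), as did the cryptochrome gene Cry2 (-0.38 ± 0.09, adjusted p = 0.00022), while the Arntl relative Arntl2 rose (0.49 ± 0.18, adjusted p = 0.017). Between nintedanib and vehicle lungs 0 of the 4 were called in either direction, where 7.31% of all genes were. Rorb did not pass the filter on low counts.

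Of 5 D-box and E-box regulators 2 rose and 2 fell between vehicle and control lungs, with a median of 0.01, where 57.9% of all genes were called. Nfil3, a repressor that competes with Dbp for D-boxes, rose (1.09 ± 0.17, adjusted p = 9.9e-07), and Bhlhe40, a repressor at E-boxes, rose (0.92 ± 0.10, adjusted p = 9.6e-10). The Dbp relatives Hlf (-0.93 ± 0.17, adjusted p = 1.6e-05) and Tef (-0.47 ± 0.11, adjusted p = 0.00048) fell. Between nintedanib and vehicle lungs Bhlhe40 fell (-0.32 ± 0.09, adjusted p = 0.022), and Nfil3 (0.13), Hlf (-0.16), Tef (-0.09) and Bhlhe41 (-0.25) were not called. Between nintedanib and control lungs Nfil3 stood at 1.22, Bhlhe40 at 0.61, Hlf at -1.09 and Tef at -0.57, and these 4 of 5 were called.

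Among 14 kinases, ligases and cofactors of the PER and CRY proteins, 5 rose and 4 fell between vehicle and control lungs, with a median of 0.032, where 57.9% of all genes were called. Csnk1e (-0.30), a casein kinase that acts on PER proteins, Btrc (-0.27), a ligase subunit for PER proteins, and Usp2 (-0.84), a ubiquitin protease, fell. Nono (0.21), an RNA-binding partner of PER proteins, rose. Between nintedanib and vehicle lungs 1 rose and 3 fell: Ncor1 (0.13 ± 0.03, adjusted p = 0.0090), a co-repressor that REV-ERB proteins recruit, rose, and its partner Hdac3 (-0.15 ± 0.03, adjusted p = 0.0047), Timeless (-0.26 ± 0.08, adjusted p = 0.034) and Tipin (-0.21 ± 0.07, adjusted p = 0.044) fell. Between vehicle and control lungs, a comparison that shares the vehicle lungs, Ncor1 stood at -0.08, Hdac3 at 0.14, Timeless at 0.25 and Tipin, which was not called there, at -0.06. Timeless and Tipin are also known for their part in DNA replication. Between nintedanib and control lungs 3 rose and 4 fell. Usp2 (-0.87), Csnk1e (-0.39) and Btrc (-0.21) were among those that fell, and Fbxw11 (0.15), a relative of Btrc, among those that rose.

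Of 6 genes known as clock outputs in several organs, 1 rose and 1 fell between vehicle and control lungs: Dtx4 (0.86 ± 0.13, adjusted p = 6.4e-07), which encodes a ubiquitin ligase, rose and Por (-0.64 ± 0.11, adjusted p = 2e-06), the partner of cytochrome P450 enzymes, fell. None of the 6 was called between nintedanib and vehicle lungs.

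**Figure D5:**
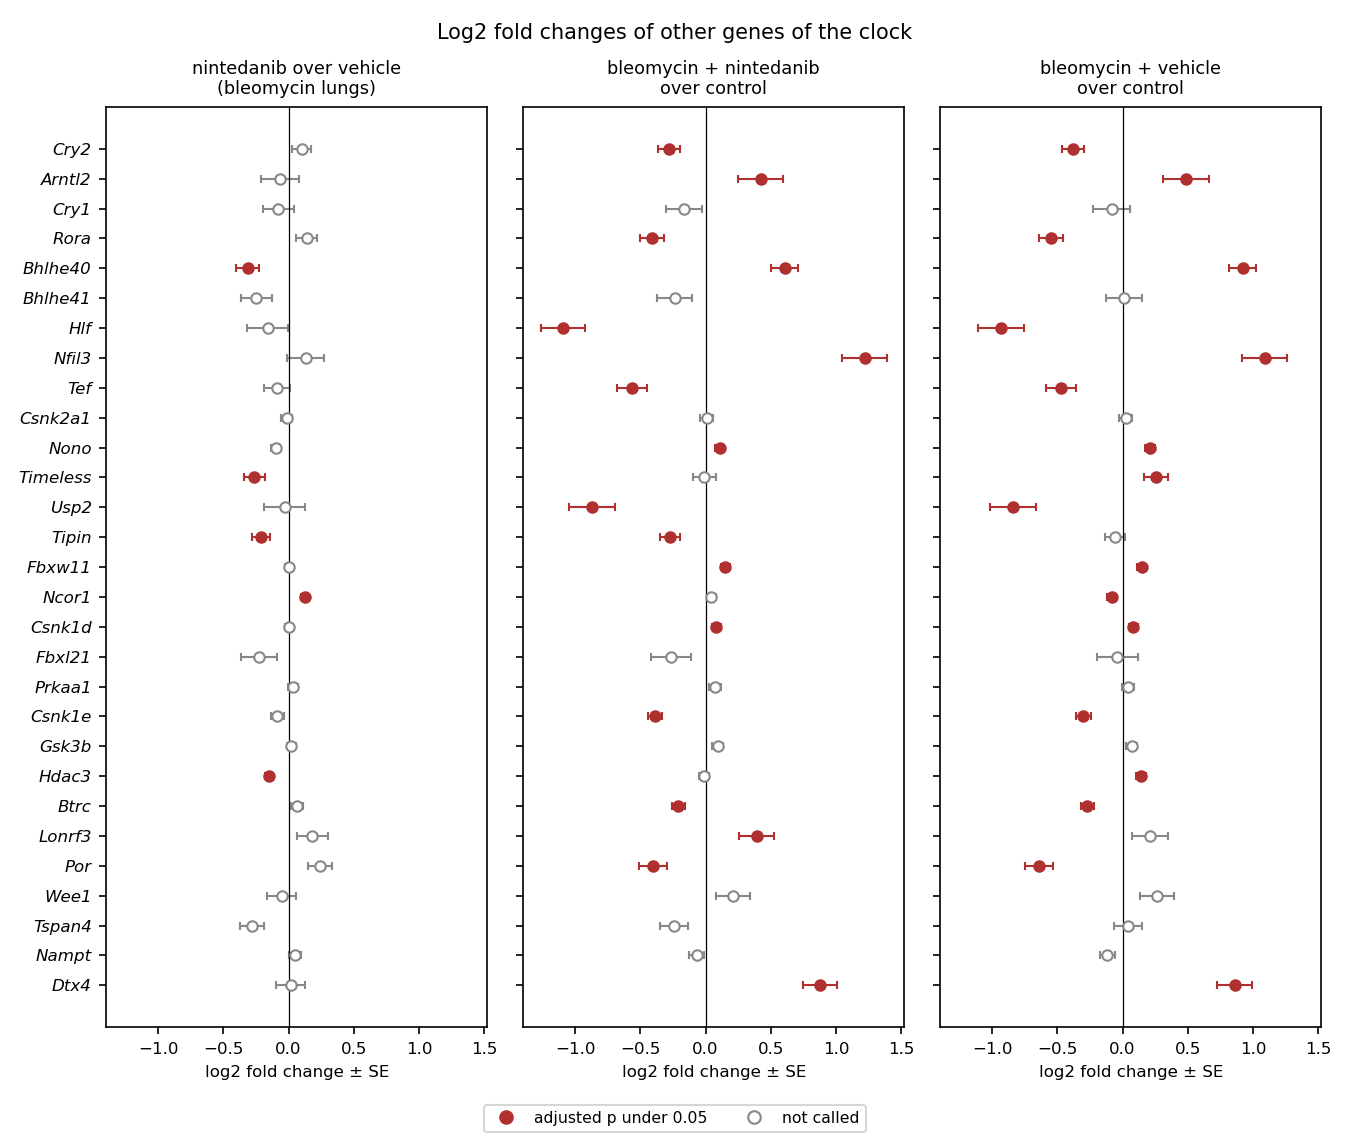
Log2 fold change ± SE of 29 other clock genes (rows) in 3 comparisons (panels), with filled points at an adjusted p under 0.05. Nfil3, Bhlhe40 and Dtx4 lie to the right and Hlf, Usp2, Por and Rora to the left in both comparisons with control lungs.

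Signals that reach the Per genes from outside the clock were read from glucocorticoid receptor targets and immediate early genes. Of all genes tested, 3.21% rose and 4.1% fell between nintedanib and vehicle lungs. Between vehicle and control lungs 29.5% rose and 28.3% fell, and no count below was tested against these shares. Of 12 glucocorticoid targets 3 rose and 0 fell between nintedanib and vehicle lungs, with a median of 0.13: Zbtb16 (1.60 ± 0.31, adjusted p = 0.0014), Map3k6 (0.78 ± 0.16, adjusted p = 0.0031) and Fkbp5 (0.73 ± 0.18, adjusted p = 0.011). Tsc22d3 stood at 0.42 (adjusted p = 0.052). Between vehicle and control lungs 4 rose and 5 fell, with Mt1 (1.13), Sgk1 (0.62) and Mt2 (1.95) higher and Klf9 (-0.73) lower. The value of Mt2 had an SE of 0.40 and rests on few reads, at an average log2 CPM of -0.64. Of 12 immediate early genes 0 rose and 4 fell between nintedanib and vehicle lungs, with a median of -0.43, namely Egr3 (-1.01), Egr1 (-1.03), Ier2 (-0.43) and Nr4a1 (-0.94). Between vehicle and control lungs 3 rose and 5 fell, with Egr2 (1.48) and Atf3 (1.19) higher and Ier2 (-0.97) and Jun (-0.77) lower. Per1, which both kinds of signal are known to induce, was not called in either of these comparisons.

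The genes whose levels went most like Dbp and Arntl were ranked by Pearson's r over 43 libraries after each group mean was subtracted, among 12000 other genes. The 3 control lungs with high Arntl take part in these values, which are descriptions with no test. Most like Dbp were its relative Tef (r = 0.86), Hdac11 (0.81), a histone deacetylase, Sord (0.75), which encodes sorbitol dehydrogenase, Pik3ip1 (0.75), Dcxr (0.73), a carbonyl reductase, and Ephx1 (0.71), the microsomal epoxide hydrolase. Within nintedanib lungs r of these 6 with Dbp ran from 0.45 for Dcxr to 0.74 for Hdac11, and within vehicle lungs from 0.82 for Ephx1 to 0.89 for Dcxr. Most opposed to Dbp were Leo1 (-0.81), a subunit of the PAF1 complex, Nfil3 (-0.80), Nol10 (-0.745) and Clmp (-0.74). Among the clock genes themselves Nr1d2 (0.85) and Per3 (0.84) were the most like Dbp.

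For Arntl, the matrix gene Spon2 (0.70), Leo1 (0.65), Lipe (0.62), which encodes hormone-sensitive lipase, Tmem108 (0.60), Unc119b (0.60) and Dtx4 (0.60) were the most alike. Within nintedanib lungs most of these values were lower, with r = 0.67 for Spon2, 0.40 for Lipe, 0.28 for Dtx4, 0.24 for Unc119b, 0.17 for Tmem108 and -0.0042 for Leo1. Within vehicle lungs they ran from 0.49 for Tmem108 to 0.77 for Unc119b. Each of these genes had a higher r over control lungs than under nintedanib. The control r is not given, since the Arntl values there are separated. Tef (-0.75), Wee1 (-0.73), a cell cycle kinase and known clock target, Maco1 (-0.72) and Cipc (-0.70), which encodes a protein that binds CLOCK, were the most opposed. Within nintedanib lungs r was -0.44 for Tef, -0.69 for Wee1, -0.48 for Maco1 and -0.55 for Cipc. Within vehicle lungs it was -0.74, -0.66, -0.77 and -0.52 in the same order. Over the 43 libraries Per3 (-0.82) and Per2 (-0.82) were further from Arntl than any of these opposed genes.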

How the data were processed

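Values are read counts per gene that the authors deposited in 1 table of 43 libraries. Reads were single-end, from polyA RNA and a directional kit, per the labels' protocols. Alignment used STAR 2.7.0f on GRCm38, with R 3.6.0, per the submitters' processing notes, while the sources used here do not give the counter, its strand setting or the annotation. All IDs matched RefSeq names. Library totals were 13324549 to 18723538 counts in nintedanib, 13175246 to 19111457 in vehicle and 13138281 to 17812995 in control lungs. No 2 libraries of a group agreed within sampling noise.

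Counts were fitted with edgeR 4.0.16 (R 4.3.3) by the quasi-likelihood test with TMM scaling and robust dispersions, over all 3 groups. filterByExpr (minimum count 10, total 15) kept 14836 genes and 99.96% of counts. Calls had a Benjamini-Hochberg adjusted p under 0.05 over all genes tested. CPM are TMM-scaled, log2 CPM has a prior count of 2, and exon lengths come from the GRCm38 annotation. The code was tested on simulated data. Permutation tests used 100000 resamples, or all orders for the 7 control lungs.

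Alternatives were DESeq2 1.42.0, its size factors, limma-voom (limma 3.58.1), library totals, no filter, only the groups compared, library number series as a covariate or its largest series alone, 2 surrogate variables (sva 3.50.0), fat and airway list means as covariates, and each library left out. Library names fall into 3 number series (33, 4 and 6 libraries) whose meaning is not stated. Fits with Arntl as a covariate or without the Adipoq libraries were chosen after seeing the data. Correlations were planned over all 10 control lungs, and were limited to 7 after their Arntl values were seen, where the largest gap between neighbours on the log2 scale exceeded 0.333 of the range. The overlaps with Thra and Sphk2 were looked up after their values were seen.

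The members and lists were chosen with earlier results of these data known. A few genes that belong to these lists are not reported here. Of each list all genes were counted and up to 4 with the smallest adjusted p were named. For likeness the 6 highest and 4 lowest r among named genes with a mean log2 CPM of at least 2 were taken.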

Additional observations from a re-analysis of the deposited data

How the results depend on the processing

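Of 357 log2 fold changes of the 10 genes under alternatives other than leaving out 1 library, 326 kept their direction and their side of the threshold, 11 lost their call, 5 gained one and 15 changed sign. Between nintedanib and vehicle lungs 2 genes were called by limma-voom, 2 with only these groups in the fit and 0 without the Adipoq libraries, against 1. Against control lungs, counts stayed at 4 to 6 for vehicle and 6 to 8 for nintedanib. Leaving out each library in turn gave 1 to 1, 4 to 6 and 7 to 8 in the same order of comparisons. Between nintedanib and vehicle lungs, Per2 stood at 0.11 in the largest library number series, 0.0023 with surrogate variables, 0.049 with fat and airway covariates, 0.11 without the Adipoq libraries and -0.074 to 0.029 with 1 library left out. With the Arntl covariate Per2 stood at 0.34 and was called, against -0.01, and Per3 stood at 0.042, Nr1d2 at 0.059 and Per1 at 0.074 there. In that fit Per2 stood at 0.39 and was called, against -0.19, and Per3 stood at 0.0031, Per1 at 0.013 and Clock at -0.11 between nintedanib and control lungs, and Per2 at 0.046 between vehicle and control lungs. Clock between nintedanib and control lungs was also -0.030 with library totals, -0.068 without the Adipoq libraries and -0.038 to 0.070 with 1 library left out. Arntl between vehicle and control lungs ran from -0.018, without control replicate 6, to 0.33. Apart from the Arntl covariate, which by construction removes what goes with Arntl along a slope common to the groups, the cause was not tested.

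Of 27 correlations with Arntl, 6 were called, 0 in the largest library number series and 1 without the 2 farthest libraries, where fewer libraries entered. Arntl with Nr1d1 in vehicle lungs stood at 0.027 in that series and at 0.061 without those libraries. In control lungs Arntl with Npas2 stood at -0.080 in that series, and without the 2 farthest libraries at -0.24 with Npas2, 0.53 with Per1 and 0.67 with Ciart, where only 5 libraries were left. No paired analysis was possible because the labels give no replicate numbers shared between groups. Npas2 had the fewest reads of the 10 genes, 15 to 130 per library, so counting error weighs most on its values.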
